A study of Homo sapiens with 20 samples.

Results

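The gluconate tumors were 4 orthotopic xenografts of OVCAR8, an established cell line of high-grade serous ovarian carcinoma, grown in NSG mice, and this report describes how far they differed from one another although all 4 had received the same treatment. They are 4 of the 20 samples of a study on the calcium-binding protein CHP1 and the membrane protein TMEM87A, which also holds cultured OVCAR8 cells with either gene knocked out and PBS-treated tumors, none of which are used here. By the study's methods the tumors came from luciferase-tagged cells with a non-targeting guide (sgNC), implanted beside the ovary, in its fat pad, at a mouse age of 6 weeks, and sodium gluconate was given at 1 mg/kg into the peritoneal cavity once a week over 35 days. NSG mice have no T, B or NK cells and supply the vessels, stroma and remaining myeloid cells of the tumor. The sources used here do not say whether mouse reads were removed. The labels number the tumors as replicates 1 to 4 and do not say which animal each came from, so the spread described is that between these samples. PolyA-selected RNA was sequenced, and each gene was given in FPKM (fragments per kilobase of transcript, scaled to the fragments of the library). The table's columns carry only letters and numbers, and the 4 headed T were read as the gluconate replicates because the study plots gluconate over PBS as T over C and only the tumor groups have 4 samples. GEO's titles do not use that letter, and if the reading were wrong the values would be those of the PBS-treated tumors. The paper describes the RNA of that plot as coming from OVCAR8 cells treated with gluconate or PBS. The sample titles name orthotopic tumors in NSG mice, and they were followed here.

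Of 24196 genes in the table, 11171 (46.2%) reached a mean of 1 FPKM over the 4 tumors and were ranked by the SD of log2(FPKM + 0.1), called SD below. Because the minimum uses the mean of the same 4 tumors, a gene that is low in most of them can pass through 1 high tumor. Such a gene then also has a high SD. The pseudocount of 0.1 keeps zeros on the scale and makes differences of low genes smaller than they are. The change is large where a tumor is near 0.1 FPKM, as for HOXD10, which was 20.5-fold apart in FPKM and 11.9-fold with the pseudocount. With a single group no comparison between groups was made, so the values are descriptions, and a function list is described by its counts and its median SD beside those of all 11171 genes. A fold is the ratio of the highest to the lowest tumor on the scale of FPKM + 0.1, and values of 4 tumors are always given in the order of replicates 1 to 4.

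Several programs that vary from one tumor to another are well known in carcinoma cells. Type I and type III interferons are secreted when a cell senses nucleic acid, and they switch on a shared set of antiviral genes through STAT and IRF factors. NF-kappaB drives chemokines, cytokines and acute phase proteins, low oxygen stabilizes HIF1A and raises glycolytic genes, and metals induce metallothioneins through the factor MTF1. Ribosomal proteins, the proteasome and the spliceosome are needed by every cell, and their subunits are made in fixed proportions. In a bulk sample, fewer cells of a type and less RNA per cell cannot be told apart.

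The keratins KRT8, KRT18 and KRT7 of simple epithelium were abundant, whereas their relative KRT19 as well as PTPRC of leukocytes and CDH5 of endothelium were under 0.1 FPKM in each tumor. KRT8, KRT18 and KRT7 had 827, 699.7, 738 and 878 FPKM, 682, 513, 564 and 678 FPKM and 306, 293, 387 and 393 FPKM, and PAX8, the transcription factor of Müllerian epithelium, had 45.1, 43.9, 47.3 and 41.5 FPKM. Of 15 ovarian carcinoma markers 10 reached 1 FPKM, among them WT1 (1.1, 1.64, 1.09 and 1.35 FPKM), MUC1 (7.43, 6.81, 6.51 and 9.13 FPKM), the folate receptor FOLR1 (4.17, 4.04, 4.37 and 6.24 FPKM), WFDC2, MSLN, EPCAM and those above. The other 5 were under 1 FPKM in each tumor, and MUC16, KRT19 and SOX17 stayed under 0.1 FPKM in each of the 4 tumors. PTPRC and CD14 of myeloid cells, CDH5, VWF, KDR, TEK and CLDN5 of endothelium, COL1A2, DCN, PDGFRA and CXCL12 of fibroblasts and PLIN1, FABP4 and CIDEA of adipocytes were all under 0.1 FPKM in each tumor. The summed level of the endothelial list ran from 13.1 to 17.6 FPKM and rested on EGFL7 and ESAM. That of the myeloid list ran from 24.9 to 31.3 FPKM and rested on CD68, which most cells carry in their lysosomes, and on ADGRE1. The sum of the fibroblast list, 166 to 192 FPKM, was mostly COL1A1 (155, 169, 182 and 174 FPKM), with COL3A1 (1.32, 1.05, 1.57 and 1.34 FPKM) and PDGFRB (2.75, 3.23, 3.24 and 2.33 FPKM) far lower. Of the 8 genes of the pericyte list 6 reached 1 FPKM, which were CSPG4 (12.8, 15.3, 14.8 and 13.2 FPKM), MCAM (39.3, 41.8, 43.2 and 49.8 FPKM), ABCC9 (2.85, 3.38, 3.39 and 3.12 FPKM), KCNJ8 (4.5, 6.45, 4.67 and 3.41 FPKM), NOTCH3 (2.83, 3.93, 3.50 and 2.48 FPKM) and DES (1.83, 1.41, 1.51 and 2.30 FPKM). Of 8 mesothelial markers 5 did, MSLN and WT1 from above, LRRN4 (2.82, 3.22, 2.49 and 2.92 FPKM), BNC1 (2.84, 1.58, 1.97 and 2.62 FPKM) and CALB2 (1.18, 1.11, 0.717 and 1.08 FPKM). FOXL2 (1.89, 3.06, 1.88 and 2.18 FPKM) and AMH (1.73, 2.43, 2.16 and 3.1 FPKM) of granulosa cells also reached it, as did LPL (6.89, 5.91, 8.33 and 7.99 FPKM) of adipocytes and CAPS (1.06, 1.03, 1.13 and 1.63 FPKM) of ciliated cells. Red blood cell markers summed to at most 0.340 FPKM. Skeletal muscle markers summed to 1.85 FPKM in replicate 4 and to 0.108 to 0.195 FPKM in the other 3.

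The 4 tumors were close to one another. The median SD was 0.11 on the log2 scale, its quartiles were 0.073 and 0.16, and the 95th percentile was 0.31. In 6143 genes (55.0%) the highest tumor was less than 1.2-fold above the lowest. At the other end, 196 genes, 1.75% of those ranked, were at least 2-fold apart and 22 at least 4-fold apart. Without replicate 4 the number at least 2-fold apart was 93, and without replicate 2 it was 126. The closest pair was replicates 2 and 3, with a median absolute difference of 0.11 and 45 genes 2-fold apart, and the most distant pair was replicates 2 and 4, with 0.15 and 94 genes. Over all genes the median deviation from the 4-tumor mean was -0.032, 0.033, 0.0060 and -0.0089, and the tumors were not equally often the highest. On the deposited scale the highest value was that of replicate 1 in 15% of all genes, of replicate 2 in 37.1%, of replicate 3 in 21.2% and of replicate 4 in 26.7%. The lowest value was theirs in 33.3%, 18.1%, 17.9% and 30.7%, in the same order. After the tumors had been scaled by median ratios replicate 2 was the highest in 27.0%, replicate 1 in 23.9% and replicate 4 in 28.9%, and replicate 1 was the lowest in 23.3%. The counts of highest and lowest tumors in the lists below stand against these shares. Replicates 1 and 3 had the fewest genes 2-fold apart, 33.

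Counting error was smaller than the spread in most genes. The FPKM values were whole multiples of 1 fragment to within 0.001 fragments in 99.998% of the values, which gave 39325749 to 42786196 fragments per tumor and the counting error of each gene. The median SD that counting alone would give was 0.038, and 72.6% of the genes varied more than 2 times as much as that. In 641 genes (5.74%) the SD was at or under the counting SD. These figures cover counting only and not the preparation of the RNA. The SD fell with the level, from a median of 0.18 at 1 to 2 FPKM to 0.094 at 10 to 20 FPKM and 0.086 at 100 FPKM or more, while the counting part fell from 0.080 to 0.012. Genes under 5 FPKM were 35.8% of all genes and 76.6% of the 500 with the highest SD.

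**Figure D1:**
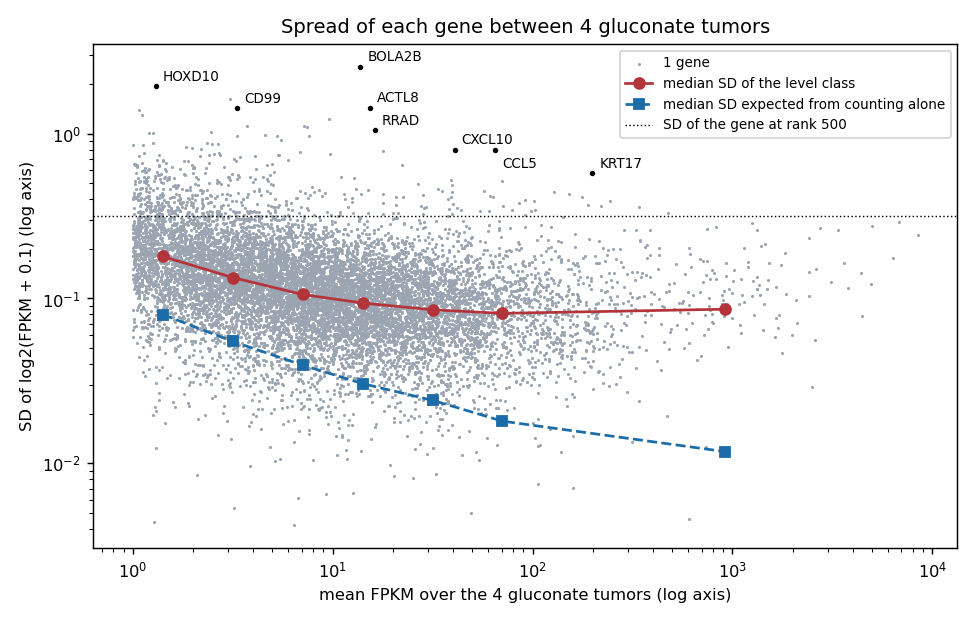
SD of log2(FPKM + 0.1) over the 4 gluconate tumors against mean FPKM, both on log axes, with 1 point per gene, the median SD of each level class (red), the SD expected from counting (blue) and the SD of the gene at rank 500 (dotted). The red line falls from 0.18 to about 0.085 and stays above the blue line at every level, and a few genes such as BOLA2B, ACTL8, CXCL10 and KRT17 lie far above it.

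Each gene was also given a split, the division of the 4 tumors at the widest gap between its ordered values. Replicate 4 stood above the other 3 in 116 of the 500 genes with the highest SD (23.2%), against 11.4% of all genes. Replicate 2 stood above the others in 68 of the 500 (13.6%), less than its 15.5% of all genes. Replicate 1 lay below the others in 55 and replicate 4 in 54 of the 500, shares near those of all genes. The 6 divisions into 2 and 2 tumors held 22.4% of the 500 and 26.5% of all genes. Replicate 4 was the tumor farthest from the mean in 41.8% of the 500 and in 30.9% of all genes.

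The highest SD belonged to BOLA2B, a member of the BolA family that handles iron-sulfur clusters, with 50.1, 0.997, 1.29 and 2.43 FPKM and an SD of 2.55. Only replicate 1 was high, on 757 fragments against 16 to 39 in the others. The gene has a near-identical copy, BOLA2, so the value depends on how reads that match both were counted. HOXD10, a homeobox transcription factor of the posterior body axis, had 2.63, 2.28, 0.128 and 0.170 FPKM from 189, 174, 9 and 13 fragments. Replicates 1 and 2 were high and replicates 3 and 4 low. ACTL8, an actin-like protein otherwise found in testis, had 11.4, 39.7, 6.62 and 3.76 FPKM and was highest in replicate 2. CD99, a surface glycoprotein encoded in the region shared by the X and Y chromosomes, had 4.81, 4.23, 3.70 and 0.50 FPKM and was low in replicate 4 alone. That region is present in the reference on both chromosomes, which also makes its count depend on the handling of repeated matches.

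SMIM11, a small membrane protein, had 0.324, 3.09, 0.455 and 0.596 FPKM and lies in a stretch of chromosome 21 that the reference holds more than once. It reached the minimum mean of 1 FPKM through replicate 2 alone. IL13RA2, a decoy receptor that binds interleukin 13 without signalling, had 14.2, 2.08, 6.94 and 5.68 FPKM, highest in replicate 1 and lowest in replicate 2. XAGE1B, a cancer-testis antigen with near-identical copies, had 11.8, 2.78, 3.49 and 11.8 FPKM and was high in replicates 1 and 4. The sum of XAGE1A and XAGE1B kept that order, at 14.6, 5.82, 7.12 and 15 FPKM. RRAD, a small GTPase of muscle and tumor cells, had 15, 6.60, 8.55 and 34.7 FPKM and was more than 2-fold higher in replicate 4 than in any other tumor. S100A1, a calcium-binding protein, had 2.62, 4.22, 2.27 and 0.711 FPKM, with replicate 4 lowest, but it rested on 17 fragments there. NUCB1-AS1 (5.15, 3.02, 5.76 and 0.972 FPKM), PABPC4-AS1 (1.16, 0.729, 2.70 and 0.438 FPKM) and ZEB2-AS1 (0.807, 1.52, 0.355 and 2.12 FPKM), RNAs named for the gene on the opposite strand, and 3 genes with LOC symbols made up the rest of the first 15. GALC, the lysosomal galactosylceramidase at rank 17, had 12.7, 2.56, 6.39 and 8.64 FPKM on 510 to 2393 fragments, with replicate 2 low. It joined IL13RA2, CDK6-AS1 (4.18, 1.53, 3.15 and 4.98 FPKM) and the collagenase MMP1 (4.6, 1.02, 3.25 and 4.37 FPKM) as the leading genes in which replicate 2 alone was low.

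Many immune genes varied together, and replicate 4 was most often the highest tumor. A total of 6 lists were described, covering interferon-stimulated genes, MHC class I with antigen loading, MHC class II, chemokines and cytokines, acute phase and complement, and NF-kappaB targets, with 98 different members at 1 FPKM or more. Of these members 36 (36.7%) were among the 500 with the highest SD, which hold 4.48% of all genes, and 15 (15.3%) were at least 2-fold apart, against 1.75% of all genes. Replicate 4 was the highest tumor in 62 members (63.3%, all genes 26.7%), and replicate 1 the lowest in 60 (61.2%, all genes 33.3%). With scaling by median ratios the counts were 64 (65.3%, all genes 28.9%) and 51 (52.0%, all genes 23.3%). The median SD over these members was 0.26.

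The chemokines and cytokines had the highest median SD of the 6 lists. Of 26 genes listed 17 reached 1 FPKM, with a median SD of 0.34. Of these, 6 (35.3%, all genes 1.75%) were at least 2-fold apart and 10 (58.8%, all genes 4.48%) were among the 500. CXCL10, a chemokine that draws T cells and that interferon induces, had 34.6, 21, 29.3 and 77.9 FPKM. CXCL11, a ligand of the same receptor, had 8.65, 5.52, 6.50 and 18.1 FPKM. In both, replicate 4 was more than 2-fold above each of the others and replicate 2 was the lowest. CCL5, a chemokine for T cells and monocytes, had 70.6, 36.5, 37.6 and 115 FPKM and was high in replicates 1 and 4. TNF (1.52, 0.919, 1.23 and 2.40 FPKM) and CXCL1, a neutrophil chemokine (5.30, 3.44, 3.88 and 7.47 FPKM), followed the order of CXCL11. CXCL16 had 1.35, 2.98, 1.70 and 3.17 FPKM and was high in replicates 2 and 4, and IL11 had the lowest SD of the list (0.12). The mean deviation of the 17 members from their 4-tumor means was -0.048, -0.19, -0.15 and 0.38.

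The interferon genes themselves were measured at low levels. IFNB1, the type I interferon that epithelial cells secrete, had 1.89, 1.14, 2.45 and 5.19 FPKM from 64, 41, 81 and 186 fragments and was highest in replicate 4. IFNL3 had 0.701, 0.850, 1.21 and 1.91 FPKM and IFNL1 1.34, 0.875, 1.48 and 1.93 FPKM, also highest in replicate 4. Both are type III interferons, and their sequences are close enough for reads to be shared between copies. The IFNL genes were chosen after their values had been seen.

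The interferon-stimulated genes did not follow a single order. Of 41 listed 38 reached 1 FPKM, with a median SD of 0.26. Of these, 4 (10.5%, all genes 1.75%) were at least 2-fold apart and 16 (42.1%, all genes 4.48%) were among the 500. Replicate 1 was the lowest tumor in 32 of them (84.2%, all genes 33.3%), while the highest was replicate 3 in 19 (50%, all genes 21.2%) and replicate 4 in 17 (44.7%, all genes 26.7%). RSAD2, an antiviral enzyme also called viperin, had 1.15, 2.09, 1.37 and 4.79 FPKM and OASL 37.8, 28.8, 30.8 and 61.0 FPKM, and both were highest in replicate 4. By contrast MX1, a GTPase that blocks viral particles, had 9.52, 17.7, 19.4 and 13.8 FPKM, and OAS1 and OAS2, which make the signal that activates RNase L, had 7.33, 13.3, 14.5 and 10.6 FPKM and 12, 22.9, 21.2 and 15.4 FPKM. In these 3 genes replicates 2 and 3 were the highest and replicate 1 the lowest. XAF1, an inhibitor of anti-apoptotic proteins, had 1.80, 4.56, 2.58 and 3.21 FPKM, with replicate 2 highest. IFI44 was nearly level at 49.1, 47.5, 50.8 and 50.5 FPKM (SD 0.044). OASL, MX1, OAS1 and OAS2 were named after their values had been seen.

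In most genes of the antigen presentation lists replicate 4 was highest. All 14 measured MHC class I and loading genes were less than 2-fold apart and none was among the 500 (median SD 0.19), but replicate 4 was the highest in 11 (78.6%, all genes 26.7%) and replicate 1 the lowest in 11 (78.6%, all genes 33.3%). Without replicate 4 their median SD was 0.10. HLA-F had 7.53, 8.54, 8.35 and 11.7 FPKM, and the classical molecule HLA-B had 625, 711, 679 and 952 FPKM. TAP2, a subunit of the peptide transporter, had the lowest SD (0.085). In MHC class II, 7 of 12 genes reached 1 FPKM and replicate 4 was the highest in 5 (71.4%, all genes 26.7%). HLA-DRB5 had 4.09, 3.06, 5.18 and 8.15 FPKM, HLA-DQB1 14.2, 8.87, 12.6 and 14.7 FPKM and HLA-DRB1 43.7, 40.7, 55.2 and 54.0 FPKM. These are polymorphic and similar to one another, so reads may have been exchanged between them. CD74, the invariant chain, had 5.97, 5.93, 5.86 and 8.00 FPKM, HLA-DMA 12.2, 10.8, 11.5 and 15.2 FPKM and HLA-DMB 1.14, 1.18, 1.17 and 1.68 FPKM. The exceptions were HLA-DRB1, highest in replicate 3, and HLA-DPA1, highest in replicate 1 with 2.75, 2.58, 1.85 and 1.99 FPKM.

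Acute phase and complement genes and NF-kappaB targets showed replicate 4 above the rest as well. CFB, factor B of the alternative complement pathway, had 62.2, 45.1, 67.5 and 107 FPKM, C3, the central complement protein, 10.7, 8.79, 14.2 and 18.5 FPKM, and SAA1, serum amyloid A, 4.03, 3.23, 3.44 and 6.51 FPKM. SERPINA1 (alpha-1 antitrypsin) had 1.90, 1.58, 2.10 and 3.37 FPKM, C1S 25.8, 30.3, 33.7 and 42.0 FPKM and C1R 61.4, 72.0, 80.0 and 95.5 FPKM. Replicate 4 was highest in 8 of the 9 measured members (88.9%, all genes 26.7%), including the complement regulators CD55 (11.5, 8.73, 10.5 and 12.1 FPKM) and CD59 (48.0, 41.9, 51.4 and 56.3 FPKM). CLU, a secreted chaperone, was the exception at 7.84, 9.46, 8.62 and 8.04 FPKM. The median SD of this list was 0.29, or 0.19 without replicate 4. In it 3 members (33.3%, all genes 1.75%) were at least 2-fold apart and 4 (44.4%, all genes 4.48%) were among the 500. Among 13 measured NF-kappaB targets replicate 4 was highest in 10 (76.9%, all genes 26.7%), with a median SD of 0.20. TRAF1, an adaptor of TNF receptors, had the highest SD with 1.42, 2.45, 1.47 and 3.12 FPKM, and NFKB1, which encodes the p50 subunit, the lowest with 11.0, 10.5, 10.8 and 12.1 FPKM.

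In 3 of the 9 measured keratins replicate 4 likewise stood above the other 3. The family was formed by symbol after the data had been seen, with these 3 members among the 500 and 6 members highest in replicate 4 (66.7%, all genes 26.7%). KRT14, the keratin of basal epidermal cells, had 3.09, 1.93, 3.42 and 9.97 FPKM, KRT16, a keratin of wounded skin, had 5.14, 4.6, 4.2 and 13.6 FPKM, and KRT17, a keratin of stressed epithelium, had 171, 139, 151 and 334 FPKM. In KRT14 and KRT16 replicate 4 was more than 2-fold above the next tumor. ANXA8, an annexin of stratified epithelium, and its near-identical copy ANXA8L1 gave summed levels of 3.58, 2.58, 4.41 and 10.1 FPKM, and were chosen for their copies after the data had been seen, like KRT16. KRT17 had the highest SD of all genes with a mean of at least 100 FPKM (0.58). CRIP1, a zinc-binding LIM protein (105, 101, 112 and 195 FPKM), and IGFBP4, a secreted binder of insulin-like growth factors (147, 107, 136 and 219 FPKM), came next among these abundant genes, again with replicate 4 highest. These keratins share long stretches of sequence with pseudogenes and with one another. KRT10, a keratin of the upper epidermis, had 13.9, 14.1, 16.2 and 17.5 FPKM and was not among the 500 (SD 0.16), nor were the simple epithelial keratins KRT8 and KRT18 (SDs 0.15 and 0.20). KRT10 too was chosen after its values had been seen.

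All 5 metallothioneins measured were highest in replicate 4. MT1F had 2.55, 3.05, 2.89 and 7.91 FPKM, MT1M 16.2, 15.5, 17.4 and 40.1 FPKM and MT1X 254, 164, 239 and 315 FPKM. In the most abundant members the difference was smaller, with 354, 258, 309 and 393 FPKM for MT1E and 1499, 1194, 1428 and 1712 FPKM for MT2A. These short proteins hold zinc and copper in clusters of cysteines, and their genes are near copies of one another. Replicate 2 was the lowest in 4 of the 5. Their median SD, 0.39, was the highest of all lists in the 4 tumors, but it was 0.17 without replicate 4 and 0.21 without replicate 2, below the 0.31 and 0.38 of the chemokines and cytokines. The mean deviations were -0.11, -0.36, -0.13 and 0.60. Their lengths are also short, with a median of 404 bases.

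The promoters of the variable genes more often held a TATA box or an interferon response element than those of the constant genes. Upstream sequence was in the RefSeq table for 9153 of the ranked genes, 330 of the 500 with the highest SD and 419 of the 500 with the lowest. A TATA box, TATAAA on the coding strand within 45 to 15 bases before the start, was present in 6.67% of the first, 0.955% of the second and 1.53% of all ranked genes. It was in 10 of 81 genes (12.3%) in which replicate 4 stood above the others. The interferon response element, here GAAA followed after 2 bases by another GAAA, on either strand within 250 bases, was in 6.06%, 1.19% and 2.33%, and in 8.64% of the replicate 4 genes. The NF-kappaB site, here GGGA, any base and TTTCC, was rare in this form, in 3 (0.909%) and 2 (0.477%) promoters of the highest and the lowest genes. It was in 0.579% of all ranked genes and in 2 of the 81 replicate 4 genes (2.47%). Other forms of the site were not counted. The metal response element TGCGCNC went the other way, with 23.0%, 31.0% and 27.9%, and it was in 14.8% of the replicate 4 genes. In all 27305 promoters of the table the 4 motifs were found in 2.63%, 3.07%, 0.546% and 16.9%, in the order named. Among the 500 with the highest SD, the 500 with the lowest and all ranked genes, the AP-1 motif TGANTCA was found in 7.58%, 4.30% and 3.68% of promoters, and GCGTG, the core of the hypoxia response element, in 36.4%, 45.8% and 46.6%, with 6.60% and 31.9% in the whole table. Matches on either strand were counted, also where 2 motifs overlapped. The median CpG count per 100 bases was 6 in the highest genes and 8.80 in the lowest.

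The 250 bases before the start are shown for 5 genes with replicate 4 highest, chosen so that each of the 4 motifs is seen in a gene of an immune or metal response, and for RMND5B, the gene with the lowest SD, which holds none of them. Capitals mark matches to the first 4 motifs, and the sequences are from RefSeq, build GRCh38.p14, written 5′ to 3′ on the strand of the gene.
CXCL10, chr4:76023498-76023747, strand minus: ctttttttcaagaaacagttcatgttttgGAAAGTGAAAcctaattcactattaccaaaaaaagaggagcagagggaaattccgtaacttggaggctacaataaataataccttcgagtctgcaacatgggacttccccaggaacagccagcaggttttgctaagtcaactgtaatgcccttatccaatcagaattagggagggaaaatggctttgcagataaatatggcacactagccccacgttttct
CFB, chr6:31945845-31946094, strand plus: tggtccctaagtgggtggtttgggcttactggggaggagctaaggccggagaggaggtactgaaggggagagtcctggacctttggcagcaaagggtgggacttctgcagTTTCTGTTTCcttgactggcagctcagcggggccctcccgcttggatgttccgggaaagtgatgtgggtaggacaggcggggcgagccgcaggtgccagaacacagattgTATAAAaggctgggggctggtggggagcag
CXCL1, chr4:73869143-73869392, strand plus: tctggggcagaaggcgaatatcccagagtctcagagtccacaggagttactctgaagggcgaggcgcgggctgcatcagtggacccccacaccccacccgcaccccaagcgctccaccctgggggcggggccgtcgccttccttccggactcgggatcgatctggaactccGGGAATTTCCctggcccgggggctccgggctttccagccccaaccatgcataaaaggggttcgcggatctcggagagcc
IFNB1, chr9:21077943-21078192, strand minus: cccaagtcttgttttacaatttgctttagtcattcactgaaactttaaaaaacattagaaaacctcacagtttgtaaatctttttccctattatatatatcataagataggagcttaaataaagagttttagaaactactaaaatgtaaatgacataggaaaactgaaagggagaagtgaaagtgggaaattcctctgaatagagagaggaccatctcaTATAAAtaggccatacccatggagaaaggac
MT1X, chr16:56682220-56682469, strand plus: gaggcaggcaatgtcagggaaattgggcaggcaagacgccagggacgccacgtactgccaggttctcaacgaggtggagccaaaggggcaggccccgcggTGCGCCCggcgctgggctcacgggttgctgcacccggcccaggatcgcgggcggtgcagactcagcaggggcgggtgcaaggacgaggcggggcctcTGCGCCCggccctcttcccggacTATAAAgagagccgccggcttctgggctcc
RMND5B, chr5:178130764-178131013, strand plus: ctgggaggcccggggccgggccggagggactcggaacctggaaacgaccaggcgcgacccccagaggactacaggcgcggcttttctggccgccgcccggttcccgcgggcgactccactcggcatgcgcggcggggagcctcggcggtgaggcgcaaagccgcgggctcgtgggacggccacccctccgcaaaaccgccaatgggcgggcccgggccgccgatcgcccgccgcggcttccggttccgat

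The match in CXCL10 ran from 221 to 212 bases before the start, and that in CFB, on the opposite strand, from 140 to 131. CFB also held a TATA box, whose first letter lay 30 bases before the start, as it did in MT1X, and 31 bases before it in IFNB1. CXCL1 held the NF-kappaB motif from 79 to 70, and MT1X held 2 metal response elements. CXCL1 was chosen for display after its values had been seen. A match is a string of letters and was not checked for binding.

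Replicate 2 stood apart upward in 68 of the 500. After ACTL8 and SMIM11 these were led by TMEM98, a membrane protein (1.97, 3.42, 1.42 and 1.25 FPKM), and ZSCAN18, a zinc finger protein (2.9, 6.92, 4.11 and 2.65 FPKM). The zinc finger genes with ZNF symbols, a family chosen after the data had been seen, had a modest but common tilt to this tumor. Of 321 measured members, 200 (62.3%) were highest in replicate 2, against 37.1% of all genes. After scaling by median ratios the share was 52.3%, against 27.0%, and after quantile normalization 45.9%, against 28.8%. On the deposited scale their mean deviations were -0.044, 0.13, -0.039 and -0.042, and 11 (3.43%, all genes 4.48%) were among the 500. ZNF578 had the highest SD (0.984, 1.67, 1.18 and 0.853 FPKM) and ZNF16 the lowest (0.013). The share was 66.4% for the 149 on chromosome 19, 58.7% for the 172 elsewhere and 24.3% for 671 other genes of chromosome 19.

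Gene length moved with the same tumors. Among genes whose transcript length, as implied by FPKM and fragments, was 8000 bases or more, replicate 2 was highest in 51.5% and replicate 4 in 15.2%. Among those under 1000 bases the shares were 15.2% and 34.4%, and replicate 1 was highest in 31.5% against 12.4% of the long ones. The median deviations of the short genes were 0.032, -0.036, -0.017 and 0.022, and those of the long genes -0.029, 0.067, 0.013 and -0.054. The median length was 4797 bases for the ZNF genes, 1123 for ribosomal proteins, 3892 for interferon-stimulated genes and 3863 for all genes. Replicate 4 was highest in more than 60% of the measured members of the metallothioneins, S100 genes, mitochondrially encoded genes, MHC class II, chemokines and cytokines and keratins, whose median lengths were 404, 671, 771, 1375, 1479 and 1852 bases, all under that of all genes. The same held for MHC class I with 2848 and acute phase and complement with 2926 bases, also under it, and for NF-kappaB targets with 4464 bases, above it. The part of length in these results was not tested.

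Replicate 1 was the highest tumor for most ribosomal proteins and most nuclear-encoded subunits of the respiratory chain, by small amounts. Of 78 cytosolic ribosomal proteins 71 were highest in replicate 1, where 15% of all genes were, with mean deviations of 0.13, -0.035, -0.029 and -0.067. When the tumors were scaled by median ratios replicate 1 was the highest in 73 (93.6%, all genes 23.9%) and replicate 2 became the lowest in the mean. After quantile normalization replicate 1 was the highest in 46. Their median SD was 0.10, or 0.053 without replicate 1, and none was 2-fold apart. RPL17 had the highest SD (8.64, 9.75, 7.36 and 7.30 FPKM) and RPL8 the lowest (2550, 2503, 2543 and 2441 FPKM). Of 71 nuclear-encoded subunits of the respiratory chain 45 (63.4%, all genes 15%) were highest in replicate 1, with a median SD of 0.073. In that list ATP5MC3 (47.5, 55.3, 42.2 and 43.4 FPKM) and NDUFS6 (155, 159, 161 and 157 FPKM) had the highest and the lowest SD. Among 33 translation initiation factors replicate 2 was highest in 14 (42.4%, all genes 37.1%) and replicate 1 in 9 (27.3%, all genes 15%). When the tumors were scaled by median ratios replicate 1 was highest in 16 (48.5%, all genes 23.9%) and replicate 2 in 8 (24.2%, all genes 27.0%).

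The 13 protein genes of mitochondrial DNA followed another order than their nuclear partners. Replicate 4 was highest in 10 (76.9%, all genes 26.7%) and replicate 1 in 3 (23.1%, all genes 15%), and replicate 2 was lowest in 9 (69.2%, all genes 18.1%). COX2, a subunit of cytochrome oxidase, had 6969, 5681, 5876 and 8813 FPKM, and ND4L, with the lowest SD of the 13, 4974, 3967, 4152 and 4493 FPKM. The median SD was 0.23, or 0.15 without replicate 4, and the mean deviations were 0.092, -0.20, -0.13 and 0.24. Quantile normalization, which sets all tumors to 1 distribution, reduced the deviations to 0.0054, -0.071, -0.043 and 0.11, with replicates 1 and 4 each highest in 6 of the genes. Counting error was small for them (SD 0.0033 for COX2).

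Hypoxia and glycolysis genes were lower in replicates 2 and 4. Replicate 1 was highest in 13 of 23 measured hypoxia genes (56.5%) and in 12 of 16 glycolytic genes (75%), against 15% of all genes. Replicate 2 was lowest in 12 of the former (52.2%, all genes 18.1%) and replicate 4 in 10 of the latter (62.5%, all genes 30.7%). Mean deviations were 0.15, -0.14, 0.067 and -0.081 for hypoxia and 0.14, -0.061, 0.058 and -0.14 for glycolysis. ANGPTL4, a secreted inhibitor of lipoprotein lipase, had 21.3, 15.4, 27.0 and 7.63 FPKM, lowest in replicate 4, and it was the single hypoxia gene with a 2-fold difference. CITED2, a negative regulator of HIF1A, had the lowest SD (0.062). ALDOA, the glycolytic aldolase, had 5.90, 3.76, 5.73 and 4.01 FPKM, the highest SD of the glycolytic list, and PKM, pyruvate kinase, had 763, 696, 718 and 703 FPKM with the lowest SD. GAPDH, chosen as a commonly used reference, had 2984, 2314, 2597 and 2561 FPKM.

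Mitotic genes divided the tumors 2 and 2. On the deposited scale replicates 1 and 2 held the highest value in all 34, in 13 (38.2%, all genes 15%) and 21 (61.8%, all genes 37.1%). Replicates 3 and 4 held the lowest in 16 (47.1%, all genes 17.9%) and 17 (50%, all genes 30.7%). The size was small, with mean deviations of 0.064, 0.089, -0.081 and -0.072, a median SD of 0.10 and no member 2-fold apart. When the tumors were scaled by median ratios replicate 1 was the highest in 25 (73.5%, all genes 23.9%) and replicate 2 in 9 (26.5%, all genes 27.0%). The order of these 2 tumors thus depended on the scaling and the division did not. BUB1, a kinase of the spindle checkpoint, had the highest SD with 65.3, 71.0, 60.4 and 54.2 FPKM, and BIRC5, survivin, the lowest with 55.9, 52.6, 51.9 and 51.9 FPKM. Among 33 DNA replication genes replicate 2 was highest in 19 (57.6%, all genes 37.1%), with a median SD of 0.079. MCM10, which helps to start the helicase, had 6.64, 9.67, 7.64 and 6.90 FPKM, and MCM3, a part of that helicase, 55.9, 55.5, 55.4 and 54.1 FPKM.

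Cholesterol synthesis genes were lowest in replicate 1, in 18 of 24 members (75%, all genes 33.3%), with mean deviations of -0.15, 0.019, 0.032 and 0.10. SC5D, an enzyme late in the pathway, had 1.75, 2.82, 2.14 and 2.80 FPKM, and FDPS, an early one, 79.2, 84.1, 82.0 and 80.4 FPKM. Matrix genes were mixed. Of 30 non-collagen matrix genes 9 (30%, all genes 4.48%) were among the 500 and replicate 4 was highest in 16 (53.3%, all genes 26.7%). MGP, an inhibitor of calcification, had 0.604, 1.12, 0.619 and 1.94 FPKM, and LOX, the enzyme that links collagen, 10.3, 11.1, 10.5 and 12 FPKM. Among 13 collagen chains COL4A2 of basement membrane had 2.55, 2.52, 2.07 and 5.03 FPKM and COL6A2 146, 149, 152 and 149 FPKM. In matrix proteases and inhibitors the SD ran from MMP1 down to MMP14, a membrane-bound collagenase with 52.4, 50.9, 54.3 and 57.2 FPKM. TAGLN, an actin-binding protein of smooth muscle, had 25.6, 37.2, 41.9 and 53.5 FPKM and was lowest in replicate 1, and TPM2, a tropomyosin, had 143, 140.3, 134 and 146 FPKM. FAP, a surface protease of activated fibroblasts that some carcinoma lines also express, had 1.62, 1.31, 2.01 and 3.34 FPKM, with replicate 4 highest, and LUM, the proteoglycan lumican, 4.22, 2.68, 2.99 and 5.18 FPKM.

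Of 18 measured HOX genes, which set position along the body axis, 4 (22.2%, all genes 4.48%) were among the 500, at a median level of 2.45 FPKM for the list. HOXC8 had 1.04, 2.38, 1.04 and 1.57 FPKM, high in replicate 2, and HOXB13 had the lowest SD (0.094). MEIS1, a cofactor of HOX proteins, had 2.44, 2.99, 1.32 and 1.12 FPKM and was higher in replicates 1 and 2, as HOXD10 was. EIF3C, a subunit of initiation factor 3, had 8.04, 7.34, 3.16 and 3.01 FPKM with the same division, and so had its near-identical copy EIF3CL (3.23, 2.32, 1.35 and 1.22 FPKM), whose sum with EIF3C was 11.3, 9.66, 4.5 and 4.23 FPKM. RFX5-AS1 completed the leading 4 of that division with 2.09, 1.81, 0.811 and 0.693 FPKM. ID2, an inhibitor of differentiation factors that BMP induces, had 1.99, 3.20, 1.37 and 1.67 FPKM and ID3 1.85, 1.89, 0.990 and 1.38 FPKM, while ID1 (10.4, 8.82, 8.26 and 9.02 FPKM) and FSTL3, an activin antagonist (50.3, 51.1, 58.9 and 57.4 FPKM), varied less. SMAD7, an inhibitor of the receptors, had 1.19, 2.16, 1.88 and 2.32 FPKM, the ligand BMP4 1.21, 1.33, 1.01 and 0.986 FPKM, the activin subunit INHBB 5.95, 7.75, 8.81 and 7.60 FPKM, and CHRD and FSTL1, a BMP antagonist and a follistatin-like protein, 1.2, 1.46, 1.52 and 1.59 FPKM and 135, 122, 139 and 161 FPKM. Of the 9 measured S100 genes S100A1 stood out, and S100A3 (9.56, 8.19, 8.33 and 13.3 FPKM) came next. The abundant members S100A6 (1947, 1687, 1801 and 1980.1 FPKM), S100A10 (704, 587, 685 and 785 FPKM) and S100A11 (389.9, 394, 389 and 453 FPKM) had SDs of 0.11, 0.17 and 0.11, and S100A2, S100A4, S100A13 and S100A16 had SDs of 0.16, 0.18, 0.097 and 0.091.

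The other divisions were led by genes of many kinds. Replicate 1 was low in NPIPA1 (1.60, 3.90, 2.63 and 4.94 FPKM), a member of a repeated family of chromosome 16, in SLC15A3, a lysosomal peptide transporter (1.08, 2.75, 2.77 and 3.02 FPKM), and in the interferon-induced chaperone RTP4 (1.04, 1.92, 1.58 and 2.81 FPKM). Replicate 3 was low in SLCO2A1, a prostaglandin transporter (2.18, 2.21, 1.24 and 3.72 FPKM), ADAMTS12, a matrix protease (1.56, 1.36, 0.604 and 1.04 FPKM), and CBWD3, one of several near-identical genes (1.96, 1.51, 0.758 and 1.23 FPKM). It was high in SRI-AS1 (1.31, 0.717, 2.47 and 0.558 FPKM), ACBD3-AS1 (1.07, 1.32, 2.54 and 0.902 FPKM) and DGKI, a diacylglycerol kinase (0.791, 0.947, 2.53 and 1.42 FPKM). Replicate 4 was low in CD99, NUCB1-AS1, S100A1 and ANGPTL4. Replicates 2 and 3 were above 1 and 4 in IQGAP2, a scaffold protein (0.823, 1.91, 1.42 and 0.927 FPKM), FCGRT, the neonatal Fc receptor (1.43, 2.29, 2.65 and 1.36 FPKM), HAGLROS (0.811, 1.39, 1.62 and 0.834 FPKM) and DGUOK-AS1 (1.17, 1.63, 1.96 and 0.900 FPKM). Replicates 1 and 4 were higher in CALHM3, an ion channel (8.89, 4.56, 3.00 and 7.35 FPKM), and SRGN, the proteoglycan serglycin (2.40, 0.762, 0.975 and 1.55 FPKM), and replicates 2 and 4 in CRYBA2, a crystallin (1.04, 2.15, 1.24 and 3.09 FPKM), and the neuropeptide NPY (0.983, 2.61, 1.24 and 2.07 FPKM).

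Noncoding RNAs varied more than coding genes. The median SD was 0.20 for 466 lncRNAs and 0.11 for 10634 coding genes, and 24.7% against 3.39% were among the 500. They were also lower, with a median of 2.22 against 8.70 FPKM. Below 5 FPKM the median SDs were 0.22 and 0.14, beside counting SDs of 0.12 and 0.060. Of 170 antisense RNAs named for a gene 41 (24.1%) were among the 500, where replicate 4 was lowest in 21 (51.2%, all genes 30.7%) and replicate 3 highest in 19 (46.3%, all genes 21.2%). For 131 pairs the gene on the other strand was also ranked, and the antisense RNA had the higher SD in 108, at a median level of 2.07 FPKM against 11.5 FPKM for the partners, and the SD fell with the level. Of the antisense RNAs among the 500, 34 had such a partner, and none of these partners was itself among the 500, which hold 4.48% of all genes. Since the sources used here do not state that counting used strand, reads of the partners cannot be told apart.

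At rank 500 the SD was 0.32. Just inside were P2RX5 (1.82, 2.97, 2.74 and 2.09 FPKM) and EML1 (2.33, 4.01, 3.07 and 2.78 FPKM), and just outside was BDNF (4.37, 6.45, 5.23 and 3.85 FPKM, SD 0.32).

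The most constant gene was RMND5B, a subunit of the CTLH ubiquitin ligase, with 6.36, 6.37, 6.37 and 6.40 FPKM and an SD of 0.0042. Among the 15 with the lowest SD were also GLIDR (1.27, 1.28, 1.27 and 1.27 FPKM), NABP2, which binds single-stranded DNA (49.1, 49.1, 49.4 and 49.4 FPKM), and MOSMO, a regulator of Hedgehog signalling (3.23, 3.22, 3.24 and 3.21 FPKM). CPTP, a ceramide-1-phosphate carrier, had 6.71, 6.72, 6.68 and 6.65 FPKM, the transcription factor TFAP4 9.29, 9.24, 9.21 and 9.19 FPKM and RTF1, which travels with RNA polymerase, 12.6, 12.7, 12.7 and 12.7 FPKM. CALM3, a calmodulin gene, had 159, 159, 158 and 158 FPKM, and CBX3, the heterochromatin protein HP1 gamma, had 106, 105, 106 and 106 FPKM. DYNC1LI1, GOT1, ZMAT3, LMAN1 and HDHD3 followed with SDs of 0.0082 to 0.0096. For CALM3 the SD of 0.0071 lay under the 0.011 that counting gives. The same held for 281 of the 500 genes with the lowest SD, whereas 219 lay above their counting SD. The median level of the 500 was 16.8 FPKM, against 2.16 FPKM for the 500 with the highest SD.

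By function, the proteasome and several other complexes were among the most constant lists. The 33 proteasome subunits had the lowest median SD of all lists, 0.064, or 0.041 without replicate 1, from PSMC4 (109.7, 109.8, 108 and 110.2 FPKM) to PSMD2 (166, 180.5, 181 and 151 FPKM). It was 0.073 for the respiratory chain, 0.074 for 33 translation initiation factors, 0.079 for 31 coat and sorting proteins, 0.083 for 41 spliceosome genes and 0.093 for 28 mediator subunits, beside 0.11 for all genes. The cytosolic ribosomal proteins, with 0.10, were close to that median. The SD fell with the level, to a median of 0.094 for all genes of 10 to 20 FPKM, 0.085 at 20 to 50 FPKM and 0.081 at 50 to 100 FPKM. The mediator, coat and spliceosome lists, at median levels of 12.2, 48.9 and 57.4 FPKM, were thus close to genes of their level. The proteasome, at 86.5 FPKM, lay below it, and the ribosomal proteins, at 783 FPKM, lay above the 0.086 of genes at 100 FPKM or more. Without replicate 4 the initiation factors had the lowest list median, 0.046, and after scaling by median ratios the coat and sorting proteins did. Single members broke the pattern. EIF3C in the initiation list and U2AF1, a splicing factor that the reference holds in copies on chromosome 21 (0.980, 0.797, 1.75 and 0.874 FPKM), were more than 2-fold apart. Apart from these genes with copies the ranges were narrow, from EIF3J (65.9, 67.2, 66.9 and 66.4 FPKM) and PRPF31 (37.4, 37.0, 36.8 and 36.2 FPKM) to EIF3E (265, 252, 221 and 199 FPKM) and SRSF1 (69.9, 92.7, 71.3 and 70.3 FPKM). In the mediator MED12 and MED29 marked the ends, with SDs of 0.17 and 0.030, and among the coat proteins SEC23B and CHMP2B, with 0.16 and 0.033. EIF3E and SRSF1 were chosen after their values had been seen.

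Of the 26 genes listed as in common use as references, none was 2-fold apart and the median SD was 0.090. Their median level was 55.2 FPKM, and all genes of 50 to 100 FPKM had a median SD of 0.081. PSMB4, YWHAZ and TFRC were among the steadiest, with SDs of 0.042, 0.043 and 0.043. GPI, a glycolytic enzyme, had the highest SD of the list at 26.3, 20.3, 23.9 and 20.2 FPKM. The classical references GAPDH and ACTB (3003, 2838, 3152 and 3489.8 FPKM) had SDs of 0.15 and 0.13, above the median of all genes, and lay 1.29-fold and 1.23-fold apart. Of the genes the study was built on CHP1 had 24.4, 25.7, 26.1 and 28.1 FPKM (SD 0.083) and TMEM87A 15.9, 16.5, 15.7 and 18.6 FPKM, with an SD of 0.11 that is at the median of all genes. Except for GPI and the study's genes, those of this paragraph were chosen for their common use.

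**Figure D2:**
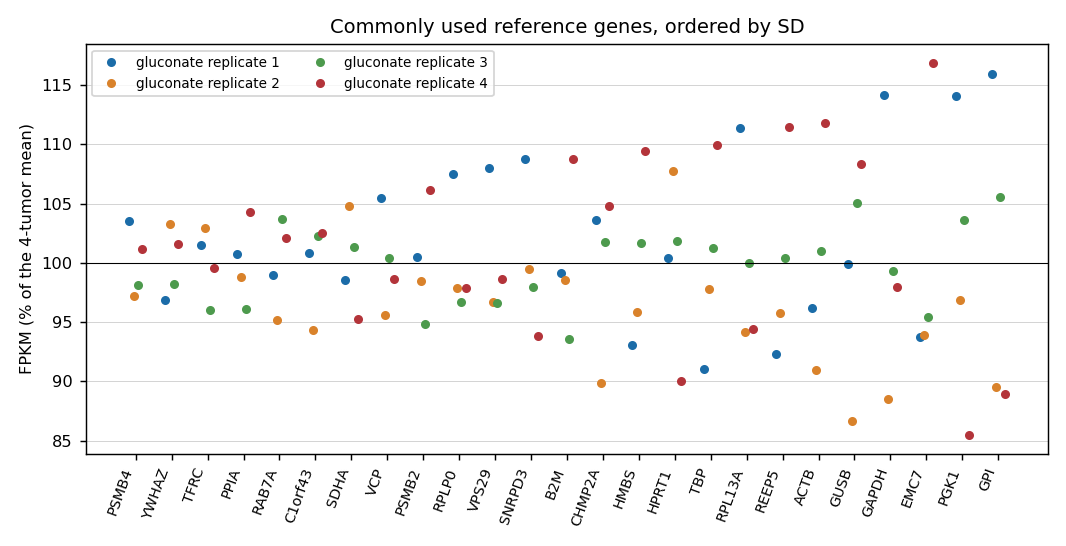
FPKM of commonly used reference genes in each of the 4 gluconate tumors, as percent of the 4-tumor mean of that gene, ordered from the lowest to the highest SD. GAPDH is highest in replicate 1 whereas ACTB is highest in replicate 4.

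Signalling and stress lists lay between these extremes. The median SD was 0.15 for immediate early genes, 0.14 for heat shock proteins, 0.098 for the unfolded protein response (0.065 without replicate 4), 0.14 for YAP targets, 0.17 for the Wnt pathway, 0.15 for the Hedgehog pathway and 0.11 for detoxification. KLF4, an immediate early transcription factor, had 8.10, 7.62, 6.58 and 12.9 FPKM, and CRYAB, a small heat shock protein, 128, 140.4, 206 and 229.7 FPKM, high in replicates 3 and 4. FOXF2, a forkhead factor, had 1.49, 2.82, 1.81 and 1.33 FPKM, the Wnt regulator NKD2 2.24, 3.72, 2.67 and 3.31 FPKM and the glypican GPC3 8.10, 10.3, 9.03 and 7.01 FPKM. ABCB1, the drug efflux pump P-glycoprotein, had 101, 57.7, 82.9 and 101 FPKM and was lowest in replicate 2. SLC7A5, an amino acid transporter, had the highest SD of the unfolded protein and amino acid list, 0.19. Of the Hedgehog pathway its receptor subunit SMO had 4.54, 6.23, 4.98 and 5.06 FPKM, and SUFU, GLI2, GLI3 and KIF7 had SDs of 0.10, 0.15, 0.11 and 0.17. The steadiest members of the lists were FOSL2 (0.059), DNAJA1 (0.049), SDF2L1 (0.039), DOCK5 (0.035), GCLC (0.026), FZD7 (0.071) and CDON (0.092).

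Epithelial genes varied more than most genes. Their median SD was 0.21, that of mesenchymal regulators was 0.15, or 0.096 without replicate 2, and that of all genes was 0.11. VIM, the mesenchymal filament vimentin, had 1636, 1699, 1638 and 1839 FPKM, and EPCAM, an epithelial adhesion molecule, 17.5, 16.4, 15.7 and 17.9 FPKM. None of 11 mesenchymal regulators was 2-fold apart, and their SDs ran from 0.079 (VIM) to 0.22 (CDH11), with TWIST1 at 8.46, 8.27, 8.88 and 11.4 FPKM and SNAI1 at 4.8, 6.24, 6.38 and 6.52 FPKM. CDH2, N-cadherin, had 22.8, 19.7, 27.3 and 23.1 FPKM, and AXL, SNAI2, ZEB1, ZEB2 and TWIST2 had SDs of 0.086, 0.084, 0.13, 0.15 and 0.14. Of 20 genes for simple epithelial keratins and epithelial adhesion 10 reached 1 FPKM, and among them CLDN4, a tight junction protein with 1.14, 1.16, 1.40 and 0.538 FPKM, was the single member 2-fold apart, and it had a counting SD of 0.27 beside its SD of 0.54. CDH3, P-cadherin, had 1.61, 1.58, 1.1 and 1.99 FPKM and the claudin CLDN1 84.8, 102, 118 and 119 FPKM (SD 0.23), and OCLN, SPINT2 and ESRP1 had SDs of 0.10, 0.11 and 0.23. WFDC2, the ovarian cancer serum marker HE4, had 1.31, 2.23, 0.987 and 1.82 FPKM, and the surface antigen MSLN 139, 103, 152 and 171 FPKM (SD 0.31). The 6 genes of the histone list that reached 1 FPKM included H2BC9, H2BC12, H2BC5, H2AC6 and H1-2, with SDs of 0.13 to 0.27. Most histone mRNAs lack a polyA tail and are poorly caught by polyA selection.

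Neighbouring genes deviated together in a few places. The ranked genes were placed by their RefSeq coordinates (GRCh38.p14), and medians were taken over 409 windows of 50 neighbouring genes, each overlapping the next by 25, after the median of all genes in each tumor had been set to 0. The tumor farthest from 0 deviated by 0.036 in the median window, and 19 windows reached 0.1, of which 11 were among the 25 of chromosome 11. On the short arm of that chromosome replicate 2 was the highest in 133 of 213 genes (62.4%, all genes 37.1%) and replicate 1 the lowest in 130 (61.0%, all genes 33.3%). The median deviations of the arm were -0.097, 0.096, 0.039 and -0.045. Toward the end of the long arm, at chr11:118998138-126278126, replicate 4 was the highest in 32 of 50 genes, with a median deviation of 0.15. The window with the largest deviation, chr19:35887952-38383824, had replicate 2 higher by 0.16 and held 26 ZNF genes. Over whole nuclear chromosomes the median deviation stayed within 0.055 of 0. The windows were drawn after the data had been seen, and 14 of the 213 genes of the short arm (6.57%, all genes 4.48%) were among the 500 with the highest SD.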

How the data were processed

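RNA of the 4 gluconate tumors was polyA-selected and read in pairs of 150 bases. The authors deposited 1 table of FPKM values per gene, on build GRCh38 by the submitters' processing notes. The aligner, the counter, the annotation and the use of strand are not given in the sources used here. The 4 columns of other samples were not used. Fragments per gene were recovered from the FPKM steps, within 0.001 fragments, and gave depth, counting error and transcript length. They cover counting error only.

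Genes with a mean of at least 1 FPKM were ranked by the SD of log2(FPKM + 0.1), and each was assigned the division of the tumors at its widest gap. The counting SD was tested on simulated data. Named were the 15 genes at either end, the 3 most variable with at least 10 and 100 FPKM, 4 for each division with at least 20 of the 500 genes, the extremes of each list, all members of lists with at most 12 measured ones and the genes at rank 500. Genes with LOC symbols were counted only, and a few genes that the rule would name are not reported here. Members and lists were chosen with earlier results of these data known. Gene positions and promoters came from RefSeq (GRCh38.p14), and 11105 ranked genes were matched. Alternatives were other pseudocounts, minima, scalings, measures of spread, numbers of top genes and each tumor left out. Python 3.11.15, numpy 2.4.6, pandas 2.3.3 and matplotlib 3.10.9 were used.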

Additional observations from a re-analysis of the deposited data

Results flagged for a closer look

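A tumor counted as far from the other 3 when its distance to the nearest of them was a larger part of the whole range of the 4 values than Dixon's limit for 4 samples at the 95% level. Chance alone gives such a gap in about 1 in 20 groups of 4, and it was found in 567 of 11171 ranked genes (5.08%) and in 12 of 244 genes named here (4.92%), both near that share. Replicate 4 was the outlying tumor in 35.3% of the 567 genes, replicate 2 in 29.5%, replicate 1 in 20.5% and replicate 3 in 14.8%.

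Replicate 4 stood apart in 8 named genes. It was high in the immune genes CD74, at 8.00 FPKM against 5.86 to 5.97 in the others, and HLA-DMB, at 1.68 against 1.14 to 1.18 FPKM. It was high in the metallothioneins MT1F, at 7.91 against 2.55 to 3.05 FPKM, and MT1M, at 40.1 against 15.5 to 17.4 FPKM. The same held for the LIM protein CRIP1, at 195 against 101 to 112 FPKM, and for S100A11, at 453 against 389 to 394 FPKM. It was low in CD99, at 0.50 against 3.70 to 4.81 FPKM, and in the histone gene H2AC6, at 2.48 against 3.53 to 3.65 FPKM.

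Replicate 1 was low in the peptide transporter SLC15A3, at 1.08 against 2.75 to 3.02 FPKM, and in the transcription factor SNAI1, at 4.8 against 6.24 to 6.52 FPKM. Replicate 2 was high in the splicing factor SRSF1, at 92.7 against 69.9 to 71.3 FPKM. It was also apart in ZMAT3, one of the 15 most constant genes, at 2.12 against 2.10 FPKM, with an SD of 0.0084 beside 0.048 expected from counting. Of 42 list means, 2 were past the limit. The mean log2(FPKM + 0.1) of the nuclear-encoded respiratory chain was 6.06 in replicate 1 and 5.96 to 5.98 in the others. That of drug and metabolite detoxification was 4.33 in replicate 3 and 4.29 to 4.30 in the others.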

How the results depend on the processing

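The counts depended on the pseudocount, the minimum level, the measure of spread and the tumors included. The median SD of 0.11 became 0.095 with a pseudocount of 1, 0.094 for genes of at least 5 FPKM, 0.14 with no minimum and 0.084 as a scaled median absolute deviation, and 0.097 to 0.11 when 1 tumor was left out. The 145 genes with an SD of at least 0.5 became 52 with a pseudocount of 1, 322 and 24 with minima of 0.5 and 5 FPKM, 1498 with no minimum and 94 by the median absolute deviation, and 107 to 177 with 1 tumor left out. The 196 genes at least 2-fold apart became 68 with a pseudocount of 1, 438 and 37 with those minima and 1891 with no minimum. Without replicate 4 they were 93 and without replicate 2 126, and at most 160 with any 1 tumor left out. The median absolute deviation was not applied to the 2-fold range. The 116 genes with replicate 4 above the others became 74 with a minimum of 0.5 FPKM, 61 by the median absolute deviation, which a single outlying tumor moves little, and 151 to 171 with 1 of the other 3 tumors left out. A value without replicate 4 cannot be formed. Of 47 lists the median SD moved by more than 1.5 times in 10 by the median absolute deviation, in 8, 4 and 3 without replicates 4, 2 and 1 and in 3 with a pseudocount of 1, and with any other alternative in at most 2. Of the 500 genes with the highest SD 464 remained after scaling by median ratios, 441 after quantile normalization, 385 with a pseudocount of 1 and 330 without replicate 4. With minima of 0.5 and 5 FPKM 231 and 117 remained, and 46 with no minimum, where the set of ranked genes also changed. Scaling moved the median of all genes by at most 0.034 in any tumor, and of 47 lists 40 kept their highest tumor by median ratios and 46 by quantile normalization, while 33 and 40 kept their lowest. No paired analysis was possible because only 1 group was analysed.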

Other observations

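Further gene families were formed by symbol after the data had been seen. The 77 measured proteins of the mitochondrial ribosome, which translates the mRNAs of mitochondrial DNA, had a median SD of 0.076, and none was 2-fold apart or among the 500 genes with the highest SD. Their mean deviations were 0.022, 0.0037, -0.012 and -0.014, smaller than those of the 13 genes they translate. Transcripts that start next to a gene and run away from it, with DT symbols, behaved like the other noncoding RNAs, with 13 of 49 (26.5%) among the 500 and a median SD of 0.19. The 500 hold 24.7% of the lncRNAs and 4.48% of all genes. Of 75 intergenic RNAs with LINC symbols 19 (25.3%) were among the 500 (median SD 0.19). The hosts of small nucleolar RNAs, noncoding transcripts that are spliced like mRNAs, were steadier, with a median SD of 0.11 over 24 genes and 2 (8.33%) among the 500. They were also more abundant, with a median of 17.3 FPKM against 2.07 FPKM for the LINC and 1.43 FPKM for the DT RNAs, and the SD fell with the level.

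Genes at least 2-fold above each of the other 3 tumors numbered 14 in replicate 4 and 3, 3 and 4 in replicates 1, 2 and 3. Genes at least 2-fold below each of the others numbered 10 in replicate 4 and 3, 6 and 1 in the same order.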
